A study of Mus musculus with 27 samples.

Results

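The DNA replication machinery was followed in mouse embryonic stem cells (mESCs) through 41 genes named by their symbol in the deposited count tables, out of 27080 genes listed there. The genes were taken for what their proteins do at an origin or a replication fork, with earlier results of these data known. All 41 were listed in each table and held between 470 and 50709 counts in every library, so each passed the filter on low counts in every comparison.

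RNA-seq came from 12 libraries of J1 cells, a mouse ESC line grown without feeders on gelatin. In the knockdown (KD) experiment the cells had been infected with lentivirus and selected with puromycin, and were collected on day 8 after infection. They carried a non-targeting shRNA (shNT, labelled shCon and control vector, 3 libraries) or 1 of 2 shRNAs against Gas41, shGas41-1 (3 libraries) and shGas41-2 (2 libraries). In the differentiation experiment every cell carried the control vector: EB day 0 (2 libraries) was undifferentiated mESCs kept with LIF, the cytokine that holds mESCs undifferentiated, and EB day 6 (2 libraries) was embryoid bodies (EBs), floating aggregates grown without LIF. Gas41, which the tables list as Yeats4, is a subunit of the Tip60/p400 and SRCAP complexes that place the histone variant H2A.Z in chromatin. The study's methods speak of biological repeats for its experiments as a whole, and the labels do not say which libraries of a group came from separate cultures, so every p-value measures the spread between these libraries. No clone or animal is named for any group.

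Replication starts when the origin recognition complex, with Cdc6 and Cdt1, loads the Mcm2 to Mcm7 helicase onto DNA as an idle ring. Cdc45 and the GINS complex switch the ring on in S phase, DNA polymerase alpha with primase lays short primers, and polymerases epsilon and delta extend them on a sliding clamp, PCNA, that is opened and placed by the RFC complex. mESCs divide fast with a short G1 phase, and many of these genes are classical targets of the E2F transcription factors.

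Words that E2F factors can bind were counted in the windows around the start sites. RefSeq windows (build GRCm38.p6, 250 bases before to 50 bases after the start, 300 bases in all) were matched by symbol for 33 of the 41 genes, and the first window was used for the 6 that had more than 1. They were searched on both strands for the E2F words TTTCCCGC, TTTCGCGC, TTTGCCGC and TTTGGCGC and for CCAAT. The E2F words can overlap each other, and none holds CCAAT. An E2F word lay in 14 of the 33 windows (42.4%), against 626 of the 27025 genes with a window (2.32%), and CCAAT lay in 20 (60.6%), against 37.9% of all genes. Below are the windows of the 4 members with the largest falls at EB day 6 among those that hold an E2F word, with each E2F word in capitals. The window of Pola2, the only member that rose with both shRNAs, follows them. It was added after its values were seen and holds none of the E2F words.
Cdc6, chr11:98907901-98908200, plus strand: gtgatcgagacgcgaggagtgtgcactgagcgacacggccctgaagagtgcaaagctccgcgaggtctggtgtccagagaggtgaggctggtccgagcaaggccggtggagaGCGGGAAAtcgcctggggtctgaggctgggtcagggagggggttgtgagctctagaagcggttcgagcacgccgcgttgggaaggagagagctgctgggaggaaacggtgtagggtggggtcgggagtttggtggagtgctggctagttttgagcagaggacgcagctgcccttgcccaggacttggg
Mcm5, chr8:75109259-75109558, plus strand: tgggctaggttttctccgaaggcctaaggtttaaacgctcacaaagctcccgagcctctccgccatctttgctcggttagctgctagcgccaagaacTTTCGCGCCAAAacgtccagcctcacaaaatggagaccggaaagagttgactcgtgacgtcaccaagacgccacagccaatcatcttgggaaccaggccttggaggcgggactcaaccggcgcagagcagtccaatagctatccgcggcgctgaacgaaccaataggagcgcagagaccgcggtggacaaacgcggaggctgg
Mcm8, chr2:132815891-132816190, plus strand: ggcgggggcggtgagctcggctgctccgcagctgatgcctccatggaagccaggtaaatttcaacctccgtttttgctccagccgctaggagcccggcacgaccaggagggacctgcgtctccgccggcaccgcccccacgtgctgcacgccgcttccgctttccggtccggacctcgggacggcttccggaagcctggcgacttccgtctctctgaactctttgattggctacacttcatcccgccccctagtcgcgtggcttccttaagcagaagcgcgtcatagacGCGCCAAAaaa
Orc1, chr4:108579204-108579503, plus strand: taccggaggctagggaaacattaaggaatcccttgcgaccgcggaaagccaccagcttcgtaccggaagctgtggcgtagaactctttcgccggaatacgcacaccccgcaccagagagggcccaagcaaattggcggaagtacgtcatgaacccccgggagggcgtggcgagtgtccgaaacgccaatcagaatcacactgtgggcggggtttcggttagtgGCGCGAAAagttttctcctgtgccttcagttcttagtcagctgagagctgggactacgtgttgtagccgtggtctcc
Pola2, chr19:5964157-5964456, minus strand: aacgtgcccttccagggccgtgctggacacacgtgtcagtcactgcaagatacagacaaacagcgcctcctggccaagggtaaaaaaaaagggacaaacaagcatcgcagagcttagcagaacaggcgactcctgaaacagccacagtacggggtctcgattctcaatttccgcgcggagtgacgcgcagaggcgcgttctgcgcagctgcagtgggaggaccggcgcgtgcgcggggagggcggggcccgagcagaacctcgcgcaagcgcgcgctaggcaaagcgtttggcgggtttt

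In Cdc6, the loader of the MCM ring, the word began 138 bases before the start. In Mcm5, a helicase subunit, a pair of words shared bases and began 153 and 149 bases before it. In Orc1, the largest origin recognition subunit, the word began 27 bases before the start, and in Mcm8, a helicase of DNA repair, 39 bases after it.

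Windows with an E2F word were found among members that fell, rose or did not pass at EB day 6. An E2F word lay in 5 of the 14 windows of members that fell (35.7%), in 7 of the 16 of members that did not pass (43.8%), and in 2 of the 3 of members that rose (66.7%), which were too few to set these shares apart. Among the helicase genes it lay in 4 of 5 windows. Other genes of the cell cycle differed in the same search: it lay in 5 of 10 windows of E2F and Rb genes (50%), in 1 of 13 of mitosis genes (7.69%) and in 0 of 7 of nucleotide supply genes, while CCAAT lay in all 13 of the mitosis genes. These are counts of letters, not of bound factors, and the share over all genes was not matched for base content.

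**Figure D1:**
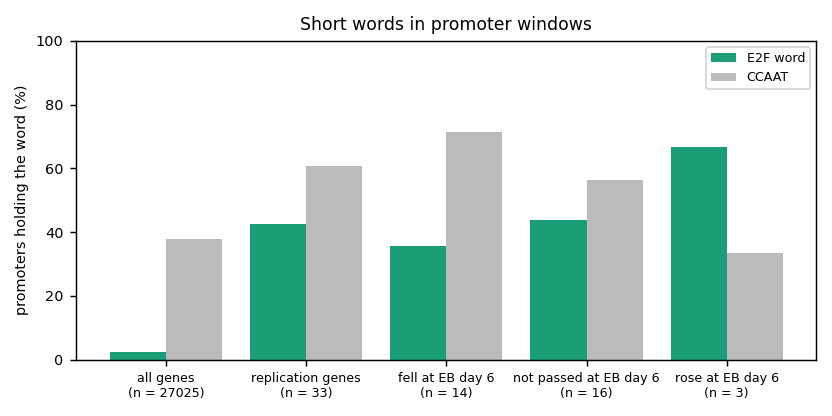
Share of promoter windows (%) that hold an E2F word (green) or CCAAT (grey), for all genes and for the replication genes, together and split by their result at EB day 6, with the number of windows below each pair of bars. The E2F words lay in 42.4% of the replication genes' windows and in 2.32% of all windows.

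The 12 libraries held between 59224537 and 81524773 counts. Yeats4 was measured at 61.2, 53.1 and 50.9 CPM (counts over the TMM-scaled total of their library) in shNT, at 3.46, 4.38 and 5.1 CPM in shGas41-1 and at 8.81 and 7.95 CPM in shGas41-2, so every KD library lay far below every control. Counting noise did not cover the spread of replicates, whose chi-square over its degrees of freedom ran from 29.2 to 236. Library 3 of shGas41-1 stood apart from libraries 1 and 2 of its group: 17 of the 41 members lay above both by 1.2-fold or more and 11 lay below both, against 30.1% above and 34.0% below among all 14386 genes at a mean of 1 CPM or more. Its deviation ran against the GC content of the coding transcript, with a Pearson correlation across genes of −0.55 over the 41 members and −0.35 over 12619 genes, which share the libraries and are not replicates. Fits without it are given beside the results that it moved.

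The levels differed widely between roles. Genes were compared on CPM per kilobase of exon, with all annotated exons of a gene joined. A gene that uses only part of them ranks too low on this scale. Pcna was the highest in shNT at 232 ± 18.9 (SD, n = 3). The helicase subunits Mcm3 at 181 ± 11.6 and Mcm5 at 177 ± 8.69 followed, and their spreads overlapped. Mcm6, Mcm7, Mcm4 and Mcm2 lay between 64.1 and 94.4. At the low end were Orc4 at 4.03 ± 0.109, Mcm8 at 4.39 ± 0.377 and Fen1 at 4.42 ± 0.511, whose spreads all overlapped. Exons overlapped those of another gene for 12 members, and a kit that does not mark strand cannot tell the reads of an opposite gene apart. For Fen1, the flap nuclease of Okazaki fragments, 78.8% of the exon bases lay under Gm10143, and for Gins2 67.3% lay under Gse1, so that their levels are uncertain. For Rfc4, 12.6% lay under Eif4a2.

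The KD experiment asked what changes when Gas41 is lost. With shGas41-1, 1 of the 41 rose and 2 fell (adjusted p up to 0.05 in edgeR, by the quasi-likelihood test), and 38 did not pass. Among all 18274 genes tested 10.8% rose and 7.73% fell. With shGas41-2 the counts were again 1 up, 2 down and 38 that did not pass, against 5.94% up and 3.97% down among 18405 genes. The genes that moved were Pola2 upward and Mcm10 and Rfc4 downward in both comparisons, which share the 3 shNT libraries. The median log2 fold change of the members was −0.11 with shGas41-1 and −0.02 with shGas41-2, beside 0.02 and −0.01 over all genes. At a change of 2-fold or more, Pola2 was the only member in either comparison and no member fell, where 7.9% and 3.96% of all genes rose and 2.4% and 0.869% fell. In DESeq2, 5 members rose and 3 fell with shGas41-1, and 2 rose and 2 fell with shGas41-2, where 2932 of all genes passed. In edgeR with all 12 libraries in one fit, 5 rose and 5 fell with shGas41-1, where 5425 of all genes passed. With shGas41-2, 1 rose and 1 fell in that fit. Pola2 and Mcm10 were among them in each of these fits, while Rfc4 missed the threshold with shGas41-2 in the fit of 12 libraries (−0.48, adjusted p = 0.11). With the replicate number as a block, 1 rose and 1 fell with shGas41-1, where 1549 of all genes passed. With shGas41-2 the block gave 5 that rose and 8 that fell, where 7166 of all genes passed. In that fit shNT replicate 3 had no partner of its number, so the spread came from replicates 1 and 2 alone. Rfc4 also lost its call when some single libraries were left out, so that the falls then counted 1, and with shGas41-2 they counted 0 without replicate 2 of that KD. Of all genes called with shGas41-2, 60% rose, and 42.7% rose when libraries were scaled to their totals alone, a scaling under which Pola2, Mcm10 and Rfc4 kept their calls.

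**Figure D2:**
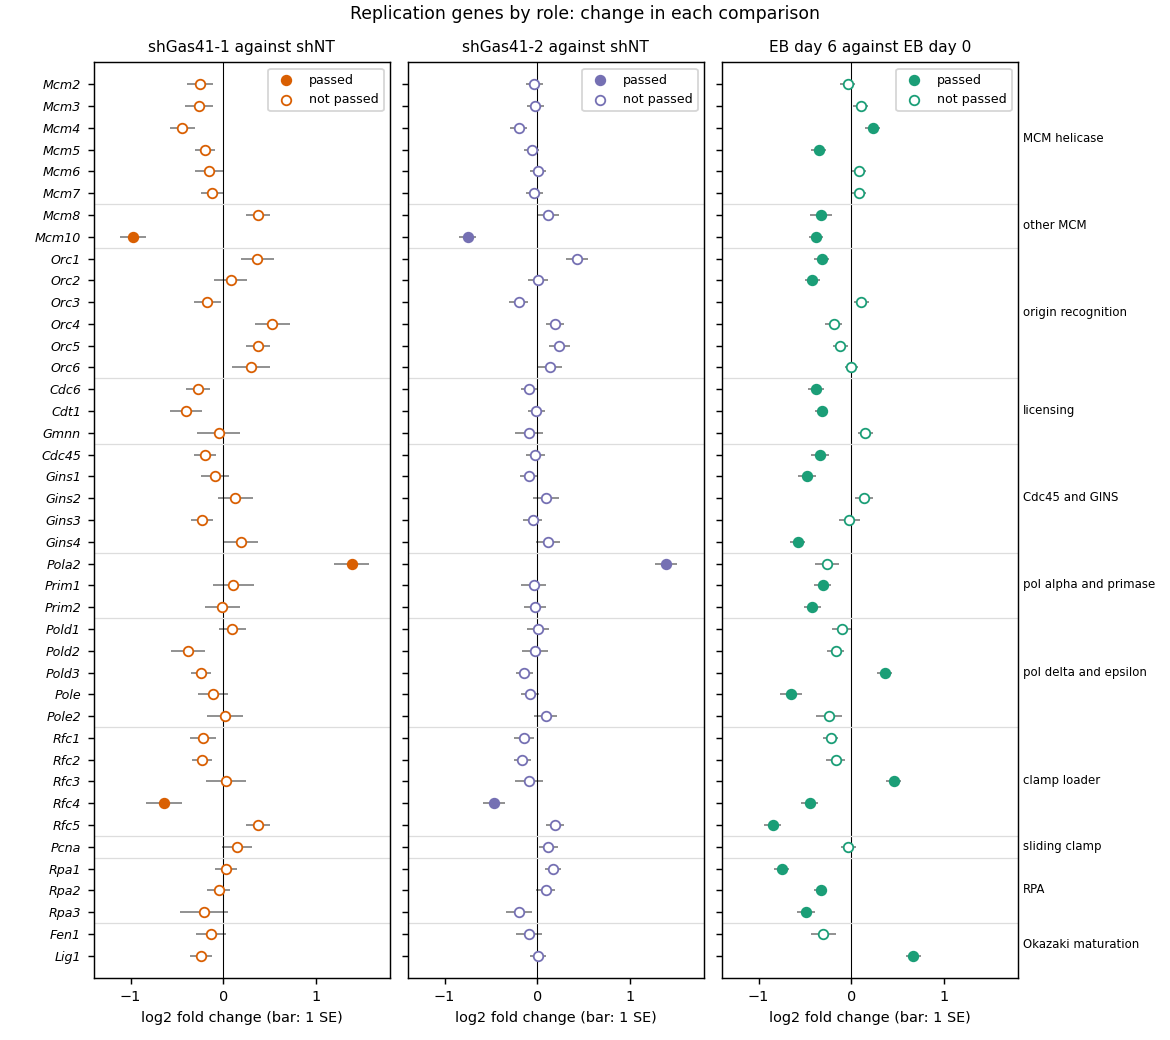
Log2 fold change of each of the 41 members (points) with 1 standard error (bars) for each shRNA and for EB day 6, ordered by role. Filled points passed at an adjusted p of 0.05 or less. In both KD panels Pola2 stands alone on the right at 1.39 and Mcm10 lies furthest left, while in the EB panel most filled points lie left of 0 and Lig1 lies furthest right at 0.67.

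Pola2, the B subunit of DNA polymerase alpha, which tethers the catalytic subunit to primase, lies on the minus strand of mm9 at chr19:5940543-5964206. It was measured at 164, 174 and 141 CPM in shNT, at 372, 340 and 525 CPM in shGas41-1, and at 388 and 447 CPM in shGas41-2. Every KD library lay above every control, and library 3 of shGas41-1 was the highest of all. The rise was 2.62-fold with shGas41-1 (log2 fold change 1.39, SE 0.19, adjusted p = 0.00315) and 2.63-fold with shGas41-2 (1.39, SE 0.12, adjusted p = 0.00145). Without library 3 the log2 fold change with shGas41-1 was 1.16 (adjusted p = 0.00145).

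The primase genes beside it did not pass. Prim1, the catalytic primase subunit, was at 42.1 to 55 CPM in shNT and 38.2 to 66.5 CPM over both KDs, with log2 fold changes of 0.11 (SE 0.22) and −0.04 (SE 0.14). Prim2, the large primase subunit, changed by −0.01 (SE 0.19) and −0.02 (SE 0.12). Without library 3 of shGas41-1 the values with that shRNA were −0.16 (SE 0.15) for Prim1 and −0.23 (SE 0.13) for Prim2. The catalytic subunit of polymerase alpha, Pola1, is not among the 41 but was listed with other replication genes, and its level followed Pola2: 137, 140 and 128 CPM in shNT, 296, 269 and 421 CPM in shGas41-1, and 291 and 320 CPM in shGas41-2. Pola1 rose with shGas41-1 by 1.31 (log2, SE 0.18, adjusted p = 0.0033) and with shGas41-2 by 1.19 (SE 0.09, adjusted p = 0.00145), again with no overlap between KD and control. Without library 3 the change with shGas41-1 was 1.07 (SE 0.09, adjusted p = 0.00121). Both subunits of the polymerase thus stood at more than 2-fold the control level, while for each primase gene KD libraries lay both above and below the controls.

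Mcm10, a scaffold that helps to activate the helicase and binds polymerase alpha, lies on the minus strand of mm9 at chr2:4910760-4933837. It was measured at 133, 139 and 139 CPM in shNT, at 71.3, 77.3 and 58 CPM in shGas41-1, and at 81.4 and 81.2 CPM in shGas41-2. All 5 KD libraries lay below all controls. The log2 fold change was −0.97 (SE 0.14, adjusted p = 0.0033) and −0.75 (SE 0.09, adjusted p = 0.00291), and with shGas41-1 it was −0.88 without library 3. With shGas41-2 the adjusted p rose to 0.0531 when replicate 2 of the KD was left out, at the same size.

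Rfc4, a small subunit of the RFC clamp loader (chr16:23114016-23127810 of mm9, minus strand), fell less. Its level was 43.6, 39.5 and 36.1 CPM in shNT, 21.9, 21.2 and 32.3 CPM in shGas41-1, and 28.9 and 28.2 CPM in shGas41-2. The groups did not overlap, and library 3 of shGas41-1 was the KD library nearest to the controls. The log2 fold change was −0.64 (SE 0.19, adjusted p = 0.047) with shGas41-1 and −0.47 (SE 0.12, adjusted p = 0.0435) with shGas41-2. The call was near the threshold: leaving out 1 library moved its adjusted p to between 0.0787 and 0.156 with shGas41-1, except without library 3, when the log2 fold change was −0.88 (adjusted p = 0.00344), and to between 0.142 and 0.256 with shGas41-2 without either KD library or shNT replicate 2.

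Values of the nearest tested genes on either side of these members on the chromosome, chosen after the members were known, were set beside them. Genes that overlap a member, such as Eif4a2 at Rfc4, were left out. For Pola2 these lay 21547 and 24339 bases away. Cdc42ep2 changed by −0.57 (SE 0.28) and −0.38 (SE 0.31), and Capn1 by −0.28 (SE 0.17) and −0.11 (SE 0.14), none of which passed. Next to Mcm10, Optn changed by −0.08 (SE 0.23) and −0.04 (SE 0.21), and Ucma by 1.97 (SE 0.59, adjusted p = 0.0493) and 2.22 (SE 0.64, adjusted p = 0.0672). Next to Rfc4, SNORA4, a small nucleolar RNA 2187 bases away, changed by 0.86 (SE 0.34) and 0.50 (SE 0.28) and did not pass. Adipoq, 18798 bases away, rose by 3.34 (SE 0.36, adjusted p = 0.00246) and 3.51 (SE 0.30, adjusted p = 0.00145), opposite to Rfc4.

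**Figure D3:**
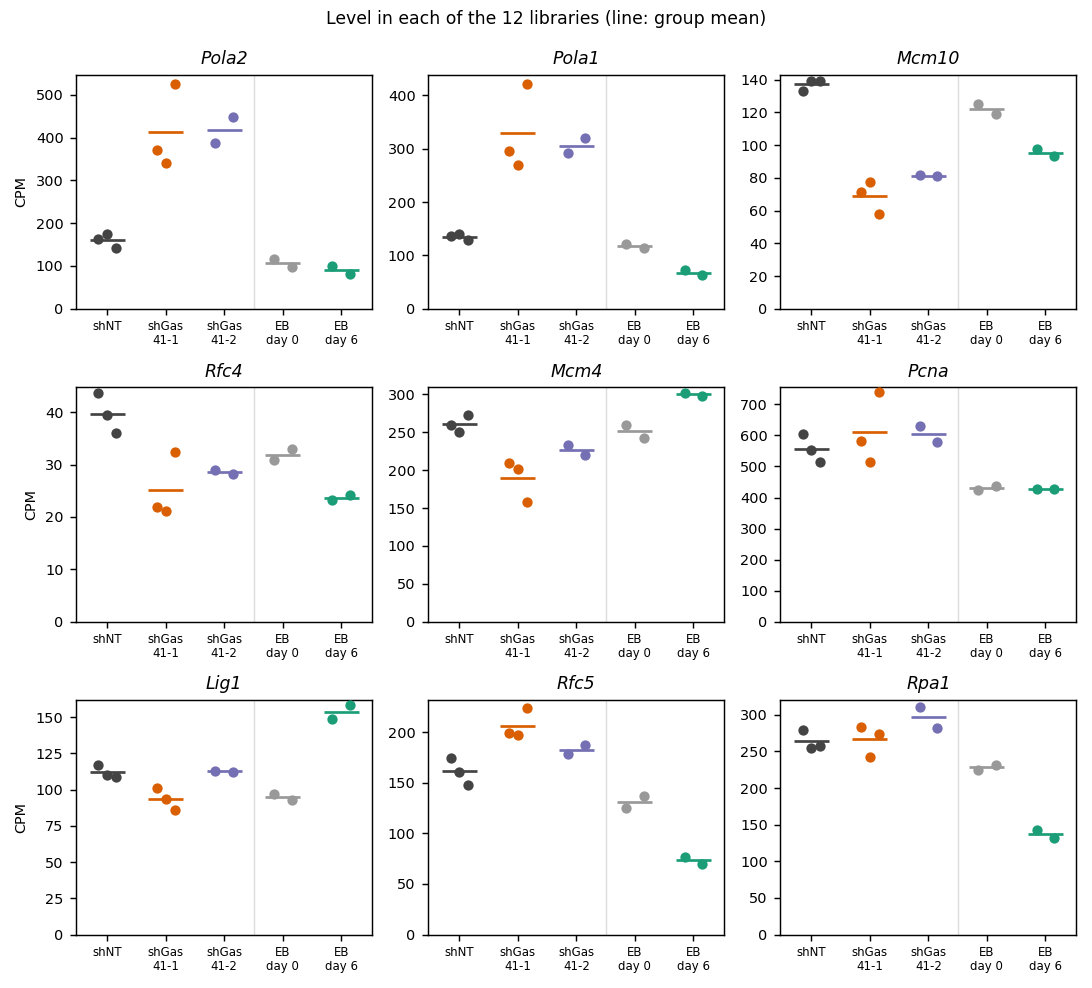
CPM in each of the 12 libraries (points, in the order of the replicate number) with the group mean (line), for 8 members and Pola1; each panel has its own axis from 0, and a grey line parts the KD from the EB experiment. Pola2 and Pola1 are higher in all KD libraries, Mcm10 and Rfc4 are lower, and Lig1, Rfc5 and Rpa1 move at EB day 6.

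None of the 6 helicase genes passed with either shRNA in the comparison as designed, although Mcm4 did so with each under other settings. Mcm2 was at 202, 218 and 228 CPM in shNT, 187, 201 and 149 CPM in shGas41-1, and 202 and 219 CPM in shGas41-2. Mcm3 was at 505, 544 and 574 CPM, then 469, 508 and 363 CPM, then 504 and 557 CPM. Mcm4 was at 260, 250 and 273 CPM, then 209, 201 and 158 CPM, then 233 and 220 CPM, with every KD library below every control. In each of the 3 genes library 3 of shGas41-1 was the lowest.

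Mcm5 was at 648, 627 and 588 CPM in shNT, 530, 543 and 523 CPM in shGas41-1, and 593 and 596 CPM in shGas41-2. Mcm6 was at 388, 402 and 447 CPM, then 398, 407 and 292 CPM, then 408 and 420 CPM. Mcm7 was at 395, 366 and 338 CPM, then 345, 330 and 323 CPM, then 357 and 357 CPM. The shGas41-2 values of all 3 lay inside the control range, and for Mcm5 those of shGas41-1 lay below it. The log2 fold changes of the 6 genes ran from −0.44 (Mcm4, SE 0.13, adjusted p = 0.0519) to −0.12 (Mcm7, SE 0.12) with shGas41-1 and from −0.2 (Mcm4, SE 0.09) to 0.01 (Mcm6, SE 0.09) with shGas41-2. Mcm4 passed with shGas41-1 without library 3 (−0.34, adjusted p = 0.0323) and with library totals alone (−0.52, adjusted p = 0.0468). It also passed in the fit of 12 libraries (−0.46, adjusted p = 0.0094) and in DESeq2 (−0.45, adjusted p = 0.0232). With shGas41-2 it passed with the replicate number as a block (−0.17, adjusted p = 0.00961).

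Of the origin recognition genes, all but Orc3 had a log2 fold change above 0 with both shRNAs, and none passed in the comparison as designed. Orc4 was at 30.8, 30.2 and 29.2 CPM in shNT, 36.4, 36.4 and 55.9 CPM in shGas41-1, and 34.1 and 34.1 CPM in shGas41-2. Orc5 was at 78.5, 71.5 and 64.4 CPM, then 87.8, 87.3 and 99.4 CPM, then 82.8 and 84.9 CPM. Orc1 was at 85.7, 72 and 66.8 CPM, then 91.8, 78.1 and 116 CPM, then 103 and 97.7 CPM. The first pair had every KD library above every control, with library 3 of shGas41-1 the highest, while for Orc1 replicate 2 of shGas41-1 lay within the control range. The log2 fold changes were 0.53 (SE 0.19, adjusted p = 0.08) and 0.19 (SE 0.1) for Orc4, 0.38 (SE 0.13, adjusted p = 0.0834) and 0.24 (SE 0.11) for Orc5, and 0.37 (SE 0.18) and 0.43 (SE 0.12, adjusted p = 0.0637) for Orc1. With shGas41-1, Orc4 and Orc5 passed in DESeq2 (0.52, adjusted p = 0.0434, and 0.36, adjusted p = 0.0498) and in the fit of 12 libraries (adjusted p = 0.0256 and 0.0231). Without library 3 their changes were 0.28 (SE 0.1) and 0.3 (SE 0.11), which did not pass, that of Orc1 was 0.19 (SE 0.14), and Orc2 stood below 0 at −0.12 (SE 0.12). With shGas41-2, Orc1 passed without shNT replicate 1 (0.54, adjusted p = 0.00335), in DESeq2 (0.44, adjusted p = 0.0179) and without a filter (0.42, adjusted p = 0.0476). With the replicate number as a block, Orc1 (0.36, adjusted p = 2.82e-06) and Orc5 (0.17, adjusted p = 0.0219) rose with that shRNA. Orc3 fell in the same fit (−0.19, adjusted p = 0.0208). The others, Orc2, Orc3 and Orc6, lay between −0.2 and 0.3 in both comparisons.

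Pcna, the sliding clamp, was at 605, 553 and 515 CPM in shNT, 581, 516 and 739 CPM in shGas41-1, and 631 and 580 CPM in shGas41-2. Only library 3 of shGas41-1 and replicate 1 of shGas41-2 were outside the control range, both above it. Its log2 fold change was 0.15 (SE 0.16) and 0.12 (SE 0.1), and with shGas41-1 it was −0.02 (SE 0.1) without library 3. The remaining members, the licensing genes Cdc6, Cdt1 and Gmnn, Cdc45 and the GINS genes, the subunits of polymerases delta and epsilon, Rfc1, Rfc2, Rfc3 and Rfc5, the RPA genes, Fen1, Lig1 and Mcm8, had log2 fold changes from −0.4 to 0.38 for shGas41-1 and from −0.2 to 0.19 for shGas41-2. Without library 3 those of shGas41-1 ran from −0.55 (Rpa3) to 0.34 (Mcm8), and none passed. With shGas41-1, Mcm8 and Rfc5 passed both in DESeq2 and in the fit of 12 libraries, and Cdt1 and Pold3 in the latter. With shGas41-2 and the replicate number as a block, Rfc5 and Rpa1 rose and Gmnn, Rfc2, Rfc3 and Rpa3 fell. The summed level of all members was 5545 to 5798 CPM in shNT, 5338 to 5657 CPM in shGas41-1 and 5866 to 5903 CPM in shGas41-2.

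The shRNAs were compared with each other directly over the 8 libraries of the KD experiment. None of the 41 members passed, and none had an unadjusted p under 0.05. In the same fit 0% of the 19146 genes passed in edgeR, 1348 genes had an unadjusted p under 0.05, and DESeq2 called 171. The differences of the members, shGas41-1 minus shGas41-2, ran from −0.39 (Cdt1, SE 0.18) to 0.35 (Orc4, SE 0.19). For Pola2 the difference was 0 (SE 0.2), for Mcm10 −0.22 (SE 0.13) and for Rfc4 −0.17 (SE 0.19). A p that misses the threshold does not show that the shRNAs act alike on these genes.

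Other genes of the cell cycle were counted from lists of known function. Among 20 further replication genes listed, 2 rose with both shRNAs, Pola1 and Pole4, a small subunit of polymerase epsilon. Pole4 was at 45.2, 40.6 and 34.6 CPM in shNT, 60.1, 53.8 and 83.4 CPM in shGas41-1, and 57.2 and 56.3 CPM in shGas41-2, a change of 0.73 (SE 0.19, adjusted p = 0.0325) and 0.51 (SE 0.13, adjusted p = 0.0458), and 0.51 (SE 0.13, adjusted p = 0.033) with shGas41-1 without library 3. With shGas41-1, 1 of the 20 fell. Of 13 E2F and Rb genes, 3 fell and 1 rose with shGas41-1, among them Tfdp1, a partner that E2F proteins need to bind DNA, by −0.69 (SE 0.11) and E2f2 by −1.02 (SE 0.17), and none passed with shGas41-2.

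Of 8 nucleotide supply genes, 2 fell with shGas41-1, the ribonucleotide reductase subunits Rrm2 (−0.51) and Rrm1 (−0.49), and none passed with shGas41-2. Of 14 mitosis genes, Cenpe, a kinetochore motor, and Ccnb2, a cyclin of mitosis, fell in both comparisons, by −1 and −0.5 with shGas41-1 and by −0.93 and −0.44 with shGas41-2. Of 7 S phase kinase and cyclin genes, Dbf4 alone rose, with shGas41-1 (0.41). Of 7 chromatin assembly genes none passed in either comparison. Of 7 CDK inhibitor genes, 1 rose and 2 fell with shGas41-1, and 1 rose and 1 fell with shGas41-2. Cdkn1c rose by 2.61 (SE 0.21) and 2.23 (SE 0.21), and Cdkn1b fell by 0.88 and by 0.63 on the log2 scale. Cdkn1a was at −0.93 (SE 0.17, adjusted p = 0.00782) with shGas41-1 and at −0.45 (SE 0.13, adjusted p = 0.0652), which did not pass, with shGas41-2. Of the 26 genes of these and the marker lists that were called with shGas41-1, 24 were called in the same direction without library 3.

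Markers of mESCs were present in the KD libraries, some of them at a lower level. The 8 pluripotency genes summed to 5520 to 5950 CPM in shNT, 4700 to 5560 CPM in shGas41-1 and 5540 to 5610 CPM in shGas41-2. With shGas41-1, 3 of them fell to less than 0.5 of the control level, Klf4 (0.457-fold), Esrrb (0.487-fold) and Tfcp2l1 (0.341-fold). Dppa3 rose 7.44-fold with shGas41-1 at low levels, with means of 0.344 CPM in shNT and 2.52 CPM in shGas41-1. With shGas41-2, Klf4 alone passed, at 0.635-fold. Pou5f1 (1.04-fold and 1.11-fold), Nanog (1.07-fold and 1.18-fold), Sox2 and Zfp42 did not pass with either shRNA. Markers of the primitive streak and primed epiblast (8 genes) summed to at most 111 CPM in any KD library and 97.5 CPM in any shNT library. Those of fibroblasts summed to at most 10.1 CPM and 13.5 CPM. Endoderm markers summed to 3.76 to 4.19 CPM in shNT, 5.26 to 8.52 CPM in shGas41-1 and 5.73 to 6.22 CPM in shGas41-2. With shGas41-1, 1 streak or epiblast marker rose and 1 fell, 2 endoderm markers rose and 1 fibroblast marker fell. With shGas41-2 none of these markers passed. Of 6 blood and vessel markers tested, Cdh5 rose with both shRNAs, and of 3 neural markers Pax6 rose with shGas41-1. The means of Cdh5 were low, at 0.122 CPM in shNT, 1.14 CPM in shGas41-1 and 0.816 CPM in shGas41-2. Whether these differences have a part in the values of the replication genes was not tested.

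The EB comparison asked how the replication genes stand once mESCs differentiate. Of the 41, 18 fell, 4 rose and 19 did not pass, whereas 28.4% of the 18287 genes tested fell and 30.5% rose. The median log2 fold change was −0.24 for the members and 0 for all genes. No member passed at 2-fold or more, where 14.7% of all genes fell and 16.6% rose. The falls reached −0.85 and the rises 0.67. The summed level of the members was 4941 and 4956 CPM at day 0 and 4634 and 4624 CPM at day 6, so the groups did not overlap. In bulk RNA, fewer cells that replicate and less of these RNAs in each cell cannot be told apart.

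The number of calls rested on single libraries of 2 per group. Leaving out either EB day 0 library left 1 in that group, and in these fits fewer members passed, as did fewer of all genes. The median log2 fold change of the members was −0.25 without replicate 3 and −0.23 without replicate 2. Only Rfc5, Rpa1, Gins4 and Lig1 passed in each of these fits, so the other calls given below each depend on a single day 0 library. With all 12 libraries in one fit, which shares the spread with the KD groups, 10 fell and 2 rose. In that fit Cdt1, Mcm8, Orc1, Orc2, Prim1, Prim2, Rfc4 and Rpa3 lost their calls as falls. Mcm4 and Rfc3 lost theirs as rises. With libraries scaled to their totals alone, 21 members fell and 3 rose, where 5871 of all genes fell and 4979 rose. The median of the members was then −0.32, with that of all genes at −0.09.

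Rfc5, a small subunit of the clamp loader, fell the most. Its level was 125 and 137 CPM at day 0 and 77 and 70.1 CPM at day 6, a fall of 0.85 on the log2 scale (SE 0.09, adjusted p = 0.000383). In the KD experiment it had been at 175, 161 and 148 CPM in shNT, 199, 197 and 224 CPM in shGas41-1, and 179 and 187 CPM in shGas41-2. All KD libraries lay above all controls there, at 0.38 (SE 0.13, adjusted p = 0.0719) and 0.19 (SE 0.1, adjusted p = 0.248), which did not pass. Yet DESeq2 (0.37, adjusted p = 0.0361) and the fit of 12 libraries (0.36, adjusted p = 0.0197) called Rfc5 with shGas41-1. The fit with the replicate number as a block called it with shGas41-2 (0.13, adjusted p = 0.0485).

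Within the clamp loader the members parted. Rfc4 went from 30.8 and 32.9 CPM to 23.3 and 24.1 CPM (−0.45, SE 0.09, adjusted p = 0.00616). Rfc3, another small subunit, went from 42.3 and 41.9 CPM to 57.4 and 60.4 CPM and rose by 0.46 (SE 0.08, adjusted p = 0.00273). Rfc1, the large subunit, and Rfc2 changed by −0.22 (SE 0.08, adjusted p = 0.0544) and −0.17 (SE 0.1). The day 6 libraries of Rfc3 lay above both day 0 libraries, those of Rfc4 and Rfc5 below.

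All 3 subunits of RPA, the complex that coats single-stranded DNA, fell. Rpa1, its largest subunit, went from 225 and 232 CPM to 143 and 132 CPM (−0.75, SE 0.08, adjusted p = 0.00042). Rpa3 fell by 0.49 and Rpa2 by 0.33 on the log2 scale. In the KD experiment Rpa1 was at 280, 255 and 257 CPM in shNT, 284, 243 and 274 CPM in shGas41-1, and 311 and 282 CPM in shGas41-2. It did not pass with either shRNA in the comparison as designed. With the replicate number as a block it rose with shGas41-2 (0.15, adjusted p = 0.0172).

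Okazaki fragments are closed by Lig1, the DNA ligase of replication, which was the member with the largest rise. It went from 97.1 and 93 CPM to 149 and 158 CPM, a rise of 0.67 (SE 0.08, adjusted p = 0.000552), with all day 6 libraries above all day 0 libraries. In shNT it had been at 117, 110 and 109 CPM, in shGas41-1 at 101, 93.8 and 86.2 CPM, and in shGas41-2 at 113 and 112 CPM. Over the 12 libraries its profile correlated at −0.39 with the mean profile of the members, the lowest of the 41, where the median member stood at 0.59. Fen1, at 8.57 and 9.15 CPM before and 7.5 and 7.15 CPM after, did not pass (−0.3, SE 0.14).

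The replicative polymerases were uneven. Pole, the catalytic subunit of polymerase epsilon, went from 107 and 93.9 CPM to 71.2 and 58.9 CPM (−0.65, SE 0.12, adjusted p = 0.00409). Pold3, an accessory subunit of polymerase delta, went from 44.9 and 42 CPM to 56 and 56.8 CPM (0.36, SE 0.08, adjusted p = 0.00946). In both genes the groups were apart. Pole2, Pold1 and Pold2 did not pass, at −0.24, −0.1 and −0.17. Pole missed the threshold without EB day 0 replicate 3 (−0.75, adjusted p = 0.0592), as did Pold3 (0.31, adjusted p = 0.0851) and Rfc3 (0.45, adjusted p = 0.0551).

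Polymerase alpha and primase fell or leaned down together. Pola2, raised in the KDs, went from 117 and 98.4 CPM to 100 and 82.4 CPM, groups that overlapped (−0.26, SE 0.13, adjusted p = 0.127). Prim2 fell by 0.42 (SE 0.09, adjusted p = 0.00738) and Prim1 by 0.31 (SE 0.09, adjusted p = 0.0232) on the log2 scale. Pola1, outside the 41, went from 122 and 113 CPM to 72.6 and 62.5 CPM (−0.82, SE 0.1, adjusted p = 7e-04), and Pole4 from 37.9 and 35.7 CPM to 16.1 and 18.2 CPM (−1.13, SE 0.1, adjusted p = 0.000207). Both had gone the other way in the KDs.

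Cdc45 and the GINS genes, whose proteins complete the active helicase, split as well. Gins4 went from 61.3 and 62.6 CPM to 42.2 and 42.1 CPM (−0.58, SE 0.08, adjusted p = 0.000931), and Gins1 (−0.48) and Cdc45 (−0.34) fell too. Gins2 (0.14, SE 0.1) and Gins3 (−0.02, SE 0.11) did not pass. In the KD experiment Gins4 was at 89, 84.3 and 68.3 CPM in shNT, 82.3, 76.5 and 113 CPM in shGas41-1, and 86.8 and 87.4 CPM in shGas41-2, with overlap throughout.

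Of the 6 helicase genes, 1 rose and 1 fell. Mcm4 was the subunit that rose, from 260 and 243 CPM to 302 and 298 CPM (0.23, SE 0.08, adjusted p = 0.0423), a call that was lost without any one of the 4 libraries, when the adjusted p lay between 0.0712 and 0.185. Mcm5 was the one that fell, from 545 and 565 CPM to 440 and 446 CPM (−0.35, SE 0.08, adjusted p = 0.00832). The day 6 libraries of each lay on 1 side of day 0.

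The other subunits did not pass. Mcm2 was at 188 and 199 CPM before and 193 and 190 CPM after, and Mcm3 at 500 and 489 CPM before and 539 and 540 CPM after. Mcm6 was at 377 and 382 CPM before and 398 and 417 CPM after, and Mcm7 at 291 and 321 CPM before and 326 and 330 CPM after. Their log2 fold changes lay between −0.04 (Mcm2, SE 0.08) and 0.1 (Mcm3, SE 0.08), and Mcm3, Mcm6 and Mcm7 were slightly higher in each day 6 library than in either day 0 library. Pcna was at 424 and 437 CPM before and 428 and 427 CPM after (−0.03, SE 0.08).

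Of the loading factors, Cdc6 fell by 0.38 (SE 0.09, adjusted p = 0.0111) and Cdt1 by 0.32 (SE 0.07, adjusted p = 0.0102) on the log2 scale, while Gmnn, the inhibitor of Cdt1, changed by 0.15 (SE 0.08) and did not pass. Orc2 (−0.42) and Orc1 (−0.32) fell, and the other 4 origin recognition genes did not pass. Orc4, which leaned up in the KDs, was at 34.8 and 36.9 CPM before and 33.1 and 30.8 CPM after. Orc5 was at 59.4 and 63.1 CPM before and 55.6 and 58.7 CPM after, and Orc1 at 58.2 and 58.5 CPM before and 47.1 and 47.8 CPM after. Mcm10 went from 125 and 119 CPM to 97.4 and 93.3 CPM (−0.38, SE 0.08, adjusted p = 0.00651), and Mcm8 fell by 0.33 (SE 0.12, adjusted p = 0.0484).

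**Figure D4:**
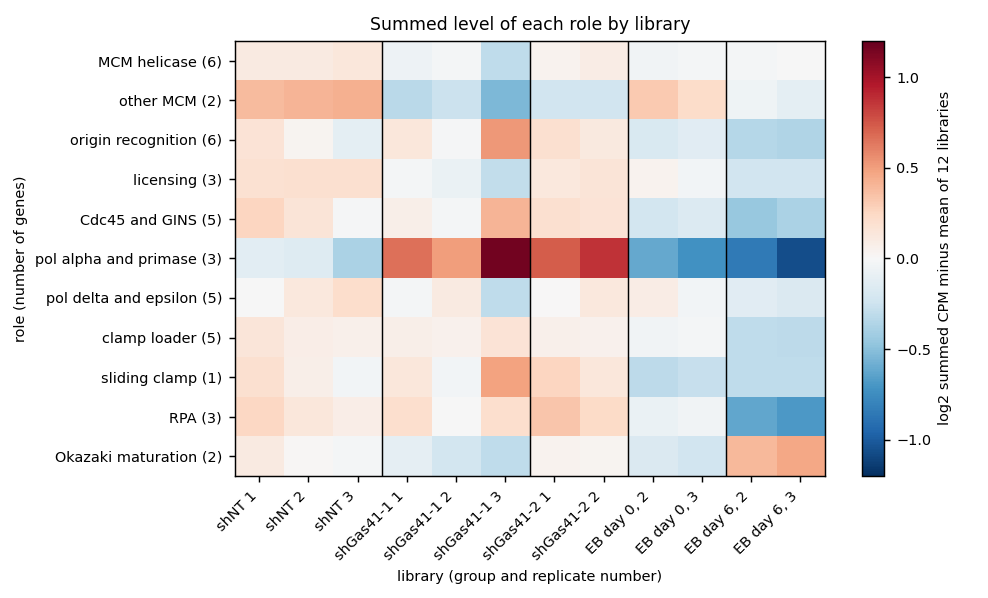
Summed CPM of each role in each of the 12 libraries, as log2 distance from that role's mean over the libraries (colour, red above and blue below; the number of genes of each role is in brackets, and black lines part the groups). Polymerase alpha with primase is highest in the 5 KD libraries, through Pola2. At EB day 6 polymerase alpha with primase, RPA, origin recognition, Cdc45 with GINS and the clamp loader lie below all other libraries. Okazaki maturation lies above all other libraries there, through Lig1. Library 3 of shGas41-1 differs from libraries 1 and 2 in several roles.

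The summed levels by role can follow 1 gene, as with Pola2 in the KDs and Lig1 at EB day 6. Polymerase alpha with primase summed to 266, 260 and 222 CPM in shNT, 457, 411 and 645 CPM in shGas41-1, 481 and 529 CPM in shGas41-2, 189 and 175 CPM at EB day 0, and 161 and 139 CPM at EB day 6. RPA summed to 334 and 341 CPM at day 0 and 228 and 219 CPM at day 6. The helicase ring summed to 2163 and 2199 CPM at day 0 and 2197 and 2220 CPM at day 6, in ranges that met, and to 2398, 2407 and 2448 CPM in shNT, 2140, 2190 and 1809 CPM in shGas41-1, and 2297 and 2370 CPM in shGas41-2. Sums weigh the most abundant genes most. Between experiments the sums cannot be compared as an effect. Each experiment has its own controls, and the labels do not say whether these were grown and collected together.

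The change at EB day 6 was set against the mean change of both KDs as 1 contrast over the 12 libraries. In it 10 members passed, 4 upward and 6 downward, where 46% of all 19613 genes passed in either direction. Pola2 differed the most, by −1.62 (SE 0.25, adjusted p = 0.000252), followed by Rfc5 at −1.1 (SE 0.15), Rpa1 at −0.82 (SE 0.15), Gins4 at −0.7 (SE 0.22), Orc1 at −0.68 (SE 0.21) and Mcm8 at −0.55 (SE 0.17). Lig1 at 0.82 (SE 0.14), Mcm4 at 0.59 (SE 0.17), Pold3 at 0.58 (SE 0.13) and Mcm10 at 0.52 (SE 0.16) differed upward. For Rfc4 the difference was 0.15 (SE 0.23) and did not pass. Calls of 5 of the 10 rested on single EB libraries. Mcm10 missed the threshold without EB day 0 replicate 2 or 3 or EB day 6 replicate 2 (adjusted p = 0.0571, 0.0887 and 0.0744) and with library totals alone (0.47, adjusted p = 0.0547). Gins4 and Orc1 missed it without any one of the 4 EB libraries (adjusted p from 0.06 to 0.0703), Mcm8 without EB day 0 replicate 2 or EB day 6 replicate 3 (adjusted p = 0.0843 and 0.069), and Mcm4 without EB day 0 replicate 3 (adjusted p = 0.0593).

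Among the other lists at EB day 6, 9 of 20 further replication genes fell and 4 rose. Chtf18, of an alternative clamp loader, fell by 1.38 and Dna2, a nuclease and helicase of flaps, by 1.02 on the log2 scale. Of 13 E2F and Rb genes 4 fell, E2f2 the most (−3.01) and then Rbl2 (−1.86), and 4 rose, with E2f6, a repressor, at 1.23. Of 8 nucleotide supply genes 4 fell, with Tyms, thymidylate synthase, at −0.85, and 3 rose.

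Of 14 mitosis genes 3 fell and 1 rose, all by less than 2-fold, and 10 did not pass. Of 7 S phase kinase and cyclin genes 2 fell and 2 rose, and of 7 chromatin assembly genes likewise, with Asf1b, a histone chaperone, at −0.99 and Chaf1b at 0.72. Of 7 CDK inhibitor genes 3 rose, with Cdkn1a at 0.79 and Cdkn1b at 0.53, and 2 fell. The lists of the cell cycle thus held genes that moved each way, as the replication genes did.

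The EB libraries matched their label. Of 8 pluripotency genes 7 fell, with Klf4 at −5.64 and Pou5f1 at −0.34, and their sum went from 5420 to 5660 CPM at day 0 to 1280 to 1610 CPM at day 6. All 8 markers of primed epiblast and streak rose, summing to 103 to 116 CPM at day 0 and 2630 to 2890 CPM at day 6. All 5 endoderm markers tested rose, and their sum went from 4.7 to 5.86 CPM at day 0 to 70.1 to 165 CPM at day 6. Of 3 fibroblast markers tested 2 rose. The fibroblast list summed to 5.95 to 8.65 CPM at day 0 and 10 to 11 CPM at day 6, while shNT reached 13.5 CPM. Of the other lists, 1 of 5 blood and vessel markers rose and 2 fell, and 1 of 3 neural markers rose and 1 fell. By the epiblast, streak and endoderm markers the day 6 libraries held RNA of other cell types, and its part in the values of the replication genes was not tested.

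Outside all lists, the genes whose level over the 12 libraries was most like the mean profile of the members were Wdr55, Mrpl43 and Abhd16b, each at a Pearson correlation of 0.97, and Hebp1 and Ppa1 at 0.95, out of 17426 genes compared. The points share libraries, depth and the gap between the experiments, and no more is read from them. Of the members themselves, Pola2 correlated at 0.51 and Mcm10 at 0.17 with that mean profile.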

How the data were processed

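RNA-seq counts of 12 libraries were used. Per the labels and methods, the authors prepared libraries with a TruSeq RNA kit, mapped reads to mm9 with TopHat2 (version 2.0.10 in the submitters' processing notes) and tallied reads over genes by htseq-count. The deposited values are raw counts, with no scaling applied. The tables also hold the authors' own log2 fold changes, p-values and FDR, which were not used. The 3 shNT libraries were identical in both KD tables. The columns called ESC in the EB table were read as EB day 0, whose labels name that table. The 15 ChIP-seq samples were not analysed here.

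Genes were filtered with filterByExpr (minimum count 10, minimum total count 15), scaled by TMM and tested in edgeR 4.0.16 (R 4.3.3) by quasi-likelihood F-tests, adjusted after Benjamini and Hochberg over all genes tested, in code tested on simulated data first. Each KD was compared with shNT and EB day 6 with EB day 0 in fits of their own, the shRNAs with each other over 8 libraries, and the EB change with the mean KD change over 12. CPM used the TMM-scaled totals of all 12 libraries. Exon lengths, overlaps and positions came from GENCODE vM1 on mm9, promoter windows from RefSeq on GRCm38.p6. Intervals and SEs cover these libraries only, and reads are not independent molecules.

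All members may be named. Values in every library were given for the 5 largest changes that passed at EB day 6, the 5 largest in each KD, members that passed against most others, the helicase genes, Pcna and any member at 2-fold. From other lists up to 4 genes with the smallest adjusted p at EB day 6 and up to 2 in each KD could be named. Cdkn1a in the KDs and the pluripotency genes were named beyond it, after their values were seen. The members, the lists and this rule were chosen with earlier results of these data known. Alternatives were other thresholds, DESeq2 1.42.0, its size factors, library totals alone, no filter, the replicate number as a block, all 12 libraries in one fit, and each library left out in turn. Neighbouring genes and the members called under some of these settings were added after the data had been seen, as were the comparison of shGas41-1 library 3 and the list genes without it. The values of some genes on the lists are not reported here.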

Additional observations from a re-analysis of the deposited data

How the results depend on the processing

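No member that was called changed direction under any alternative run. The balance of all calls did turn with library totals alone: the share that rose went from 58.3% to 49.7% with shGas41-1, from 60% to 42.7% with shGas41-2 and from 51.8% to 45.9% at EB day 6. Counts are of members unless all genes are named. At 2-fold or more, no member fell with either shRNA, none rose or fell at EB day 6, and for the EB change minus the KD change 0 rose and 2 fell, with all genes at 1882, 888 and 5726 in the 3 comparisons. At an adjusted p of 0.1, 5 rose with shGas41-1 (all genes 5196), 2 with shGas41-2 (3397), and 10 fell in the contrast of EB and KD. At 0.01, 1 fell with each shRNA (1116 and 417 genes), and 2 rose and 3 fell in that contrast. In DESeq2, 5 rose with shGas41-1, 2 rose with shGas41-2 (2932 genes) and 171 genes differed between the shRNAs. Without a filter 2 rose with shGas41-2. In one fit of 12 libraries, 5 rose and 5 fell with shGas41-1 (5425 genes), 1 fell with shGas41-2, 2 rose and 10 fell at EB day 6, and 15 genes differed between the shRNAs. The median at EB day 6 was −0.25 in DESeq2 and with its size factors, −0.32 with library totals alone, −0.23 without a filter and −0.22 in one fit of 12 libraries, and that of shGas41-2 was −0.1 with library totals alone. The cause of these shifts was not tested.

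With 1 library left out, all genes called ran from 1441 to 3848 with shGas41-1 (members that fell 1 to 3), from 306 to 4131 with shGas41-2 (rose 1 to 2, fell 0 to 2), from 5066 to 10921 at EB day 6 (rose 1 to 3, fell 4 to 18, median −0.25 to −0.23) and from 6951 to 10067 in the contrast of EB and KD (rose 2 to 6, fell 3 to 9, median −0.18 to −0.11). The medians ran from −0.16 to −0.04 with shGas41-1, from −0.03 to 0 with shGas41-2 and from −0.12 to −0.01 between the shRNAs. Where 1 library of a group remained, it was taken to vary like the others.

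The replicate numbers were not taken to pair the libraries. Same-numbered libraries deviated together at 0.01, 0.14 and −0.39 with shGas41-1, at 0.34 and 0.24 with shGas41-2, and at 0.05 at EB day 6. With the replicate number as a block, 1 member fell with shGas41-1 (1549 genes), and 5 rose and 8 fell with shGas41-2 (7166 genes). The latter counts rest on the spread of replicates 1 and 2 alone, since shNT replicate 3 had no partner.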
